A study of Homo sapiens with 6 samples.

Results

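The phase II conjugating enzymes attach a polar group to drugs, hormones, bilirubin and reactive lipids, so that these can be carried out of the cell. They were taken here as the protein-coding genes whose symbols begin with UGT1A, UGT2A, UGT2B, SULT, GSTA, GSTM, GSTO, GSTP, GSTT, GSTZ, GSTK or MGST, and 39 of the 35856 genes listed met that rule. The 39 genes comprised 13 UDP-glucuronosyltransferases, 10 cytosolic sulfotransferases, 13 soluble glutathione transferases and 3 microsomal glutathione transferases. A further 10 genes carried such a symbol without a transcript listed as protein-coding with these data. They were mostly pseudogenes, included UGT1A4 and SULT4A1, and were kept out of the set.

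UDP-glucuronosyltransferases are membrane enzymes of the endoplasmic reticulum that transfer glucuronic acid from UDP-glucuronate, and sulfotransferases are cytosolic enzymes that transfer sulfate from PAPS. Glutathione transferases couple glutathione to electrophiles, and the microsomal ones are unrelated membrane proteins of the MAPEG family with a similar activity. Hepatocytes are rich in glucuronidating and alpha class enzymes, whereas GSTP1 is sparse in adult hepatocytes and common in cultured and tumor cells.

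RNA was sequenced from HCCLM3, an established human hepatocellular carcinoma line, in 3 libraries of cells given an empty vector, labelled NC, and 3 libraries of cells given a vector carrying the long non-coding RNA LINC00862, labelled LINC00862. The vector described in the study's methods was pcDNA3.1, and the sources used here do not say how long after transfection the RNA was taken or whether the cells were 1 clone. The comparison asks which genes differ once LINC00862 is overexpressed. No source used here shows that both groups were grown from the same stock of HCCLM3 cells, so a difference between stocks and an effect of the vector cannot be told apart in any fold change given here, including those of genes that are commonly deleted in the germline, such as GSTM1, GSTT2B and UGT2B17. Nothing in the labels says that the libraries came from separate cultures, so p-values measure only the spread between these libraries.

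Total counts lay between 58241123 and 68229070 per library. The transcript carried by the vector had 6 to 21 counts in the NC libraries and 76 to 145 counts in the LINC00862 libraries. Its mean FPKM, a level corrected for transcript length and library size, was 0.0507 in NC and 0.449 in LINC00862. Counts per gene do not separate reads of the vector from reads of the chromosomal gene. The groups differed across most of the transcriptome, and 64.2% of the 20741 genes tested with edgeR's quasi-likelihood test passed a false discovery rate of 0.05. The label of hepatoma cells was checked against 17 hepatocyte and hepatoma markers, of which 14 were listed and 11 tested. Of these, 8 rose and 3 fell (AFP, ASGR1 and SERPINA1). The summed FPKM of the list was 9.57 to 9.68 in the NC libraries and 2069 to 2517 in the LINC00862 libraries. Fibrinogen genes and CPS1 made up most of that sum. Albumin was near 0 in NC, with a mean of 0.00780 FPKM, and stood at 1.51 FPKM in LINC00862. Of 10 mesenchymal markers, 7 fell and 1 rose, and their summed FPKM went from 775 to 823 in NC down to 16.9 to 22.1 in LINC00862. Of 8 general epithelial markers, 7 rose and none fell, and their summed FPKM was 195 to 288 in NC and 566 to 694 in LINC00862. Of 11 intestinal epithelial markers, 7 were listed and 2 tested, of which MUC13 rose and LGALS4 did not pass the test. Their summed FPKM was 0.512 to 0.625 in NC and 112 to 148 in LINC00862, nearly all of it MUC13, while VIL1, CDX2, CDH17 and GPA33 stayed under 0.02 FPKM on average in both groups. These shifts accompany every result given here, and their part in the results was not tested. In bulk RNA, fewer cells of a type and less RNA per cell cannot be told apart.

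Sequence upstream of the members is shown first, with the members that rose beside those that fell and with no test of the difference. The RefSeq promoter windows (GRCh38.p14) held 33 of the 39 members, and only the 250 bases before each RefSeq gene start were examined. The starts listed with the counts can lie further upstream, so a window can fall inside a gene or an exon. The median GC content of these bases was 58% over all 35116 promoters of the table and 45.6% over the 33 members. It was 50.4%, with a median of 3 CpG pairs, for the 13 members that rose and had a window, and 71.2%, with a median of 19 CpG pairs, for the 5 that fell and had one. The median was 11 CpG pairs over all promoters, and 64% GC and 20 CpG pairs over the 12709 promoters of genes tested here, so the members that fell lay near the tested genes in CpG pairs and those that rose lay below them.

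The letters TGACNNNGC, the core of the antioxidant response element bound by NRF2 with small MAF proteins, were found on either strand in 10.91% of all promoters and in 8 of the 33 members (24.24%). Among the members that fell, 3 of 5 held this core, namely GSTP1, GSTO1 and GSTM1. Among those that rose, 2 of 13 held it, GSTA4 and SULT1C2. The stretches of 30 bases around the core in the members that fell are printed here with motif letters in capitals, all from the plus strand. In GSTP1 the core at position -66 from the RefSeq start also holds the AP-1 letters TGANTCA, and in the first of the GSTO1 stretches a TATA box (TATAAA) follows on the minus strand. Exons of GENCODE 29 begin after the first 33 bases of the GSTP1 window and the first 68 of the GSTO1 window. The GSTP1 core and the GSTO1 core at position -161 lie beyond those exon starts.
GSTP1, chr11:67583736-67583765: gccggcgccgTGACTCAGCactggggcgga
GSTO1, chr10:104254656-104254685: ggcggagggaTGACTGAGCaTTTATAactt
GSTO1, chr10:104254721-104254750: cgagatgcttTGACACAGCcccttaagatg
GSTM1, chr1:109687642-109687671: ctgggcgcccTGACTTCGCtcccggaaccc

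Longer windows are shown for MGST1, UGT2B7 and UGT1A7, which rose, and for GSTM3, which fell, to set their base composition side by side. The MGST1 and UGT2B7 windows lie inside the spans listed for these genes. In MGST1 the capitals mark GTTAAT, part of the HNF1 site, found on the minus strand at positions -56 and -45. GTTAAT was found in 6.231% of all promoters and in 5 members (15.15%). In UGT2B7 the capitals mark CAAAGNNCA, an HNF4 site, on the minus strand at position -71, which was found in 4.44% of all promoters and in 2 members. In UGT1A7 they mark GCGTG, the core of the xenobiotic response element read by the aryl hydrocarbon receptor, on the minus strand at position -63. GCGTG was found in 32.22% of all promoters and in 9 members (27.27%). GSTM3 held GCGTG at position -127 and the CDX letters TTTATNG at positions -74 and -57, and was the one member among the 5 that fell with an A and T rich window, at 40.0% GC. TTTATNG was found in 8.93% of all promoters and in 5 members, and can overlap a TATA box. The letters TATAAA were found in 10.72% of all promoters and in 8 members (24.24%). A match to such letters is a description of the window and says nothing of whether a factor bound there.
MGST1, chr12:16347395-16347644, plus strand: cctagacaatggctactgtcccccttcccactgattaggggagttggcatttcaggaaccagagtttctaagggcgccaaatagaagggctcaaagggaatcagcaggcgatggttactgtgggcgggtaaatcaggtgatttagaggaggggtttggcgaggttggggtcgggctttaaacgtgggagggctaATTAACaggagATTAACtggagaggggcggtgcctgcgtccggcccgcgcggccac
UGT2B7, chr4:69096224-69096473, plus strand: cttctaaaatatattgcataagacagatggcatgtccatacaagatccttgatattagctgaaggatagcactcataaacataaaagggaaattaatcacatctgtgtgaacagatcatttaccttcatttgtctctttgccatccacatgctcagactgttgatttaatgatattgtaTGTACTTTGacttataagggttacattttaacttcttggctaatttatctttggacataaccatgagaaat
UGT1A7, chr2:233681651-233681900, plus strand: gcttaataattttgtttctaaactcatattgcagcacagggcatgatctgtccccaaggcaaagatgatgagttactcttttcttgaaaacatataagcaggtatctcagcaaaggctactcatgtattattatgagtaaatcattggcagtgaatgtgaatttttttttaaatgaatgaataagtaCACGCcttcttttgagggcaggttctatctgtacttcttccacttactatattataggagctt
GSTM3, chr1:109741039-109741288, minus strand: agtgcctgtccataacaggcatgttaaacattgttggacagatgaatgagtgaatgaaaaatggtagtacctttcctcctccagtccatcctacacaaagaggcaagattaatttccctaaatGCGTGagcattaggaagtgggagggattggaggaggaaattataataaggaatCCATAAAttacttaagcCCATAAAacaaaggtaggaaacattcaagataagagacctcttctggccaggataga

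Of the 39 members, 26 had enough counts to be tested. In the LINC00862 group 17 of these were higher and 6 were lower, and 3 (SULT1A2, GSTM2 and MGST3) did not pass the test. Over all genes tested, 34.4% were higher and 29.8% were lower. The groups did not overlap in FPKM in 22 of the 26 tested members and in 71.1% of all genes tested. The median log2 fold change was 1.60 over the tested members and 0.11 over all genes tested. The other 13 members reached no more than 24 counts and 0.138 FPKM in any library. In NC, 13 of the 39 members were at 0 counts in every library. A gene that entered the test only through its counts in a single group had to differ, so these counts are a description of the set. Such genes were every tested glucuronosyltransferase and SULT1C2, which entered through LINC00862, and GSTT2B, which entered through NC.

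**Figure D1:**
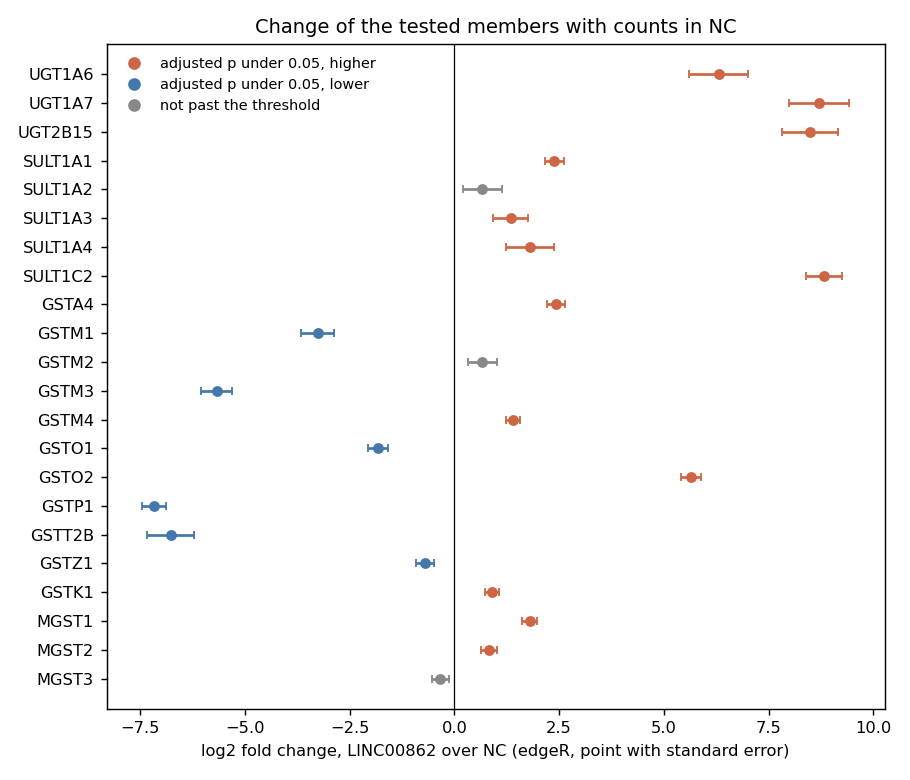
Log2 fold change (LINC00862 over NC, horizontal axis) with its standard error for the tested members that had counts in NC, colored by the outcome of edgeR's test at a false discovery rate of 0.05. SULT1C2, UGT1A7 and UGT2B15 lie farthest to the right, at 8.83, 8.71 and 8.49, and GSTP1 lies farthest to the left, at -7.18.

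The glucuronosyltransferases were almost silent in NC and were detected in LINC00862. The 7 tested genes, UGT1A1, UGT1A6, UGT1A7, UGT2B4, UGT2B7, UGT2B15 and UGT2B17, were all higher in LINC00862, and none of them had more than 14 counts in any NC library. Each entered the test only through its LINC00862 counts and could only come out higher, so these calls and their adjusted p-values are a description. UGT1A7, an enzyme of the upper digestive tract, was listed at 0, 0 and 0.0212 FPKM in NC and at 3.24, 2.28 and 3.04 FPKM in LINC00862. This corresponded to a log2 fold change of 8.71 (standard error 0.72, adjusted p = 8.78e-06 by edgeR). That size rests on the 6 counts of NC library 3, since without this library NC was at 0 and the fitted value was 12.76, which depends on the prior count, and without NC library 1 it was 8.11. UGT1A6, which conjugates simple phenols, was listed at 0.0392, 0.0200 and 0 FPKM in NC and at 1.02, 1.83 and 1.501 FPKM in LINC00862, a log2 fold change of 6.31 (standard error 0.71, adjusted p = 5.74e-05 by edgeR). With a library left out it ranged from 5.76 (without NC library 3) to 7.22 (without NC library 1). For both genes every LINC00862 library lay above every NC library.

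UGT1A1, the bilirubin-conjugating enzyme, had 0 counts in each NC library and 96, 110 and 51 counts in the LINC00862 libraries. Set against a floor of 3 counts over the NC group, this was at least 91.5-fold higher (adjusted p = 9.98e-05 by edgeR), although its level reached only 0.275 ± 0.101 FPKM (SD, n = 3). UGT1A5 and UGT1A9 were not tested and had 4 and 24 counts over the LINC00862 group and none in NC, and UGT1A8 had 7 counts in NC library 3 and none elsewhere. The UGT1A genes lie on top of one another on chromosome 2 and use common last exons, so 40.6% of the exon bases of UGT1A7 and 49.85% of those of UGT1A1 belong to another UGT1A gene as well in GENCODE 29. How shared reads were split between them is not known, and their single values are uncertain. Summed over the 6 UGT1A members, the counts were 14, 7 and 13 in NC and 1556, 1362 and 1425 in LINC00862, a log2 fold change of 7.09 (standard error 0.28, adjusted p = 1.31e-07 by edgeR). This sum also entered the test only through its LINC00862 counts, so its adjusted p-value is a description too.

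In the UGT2B cluster on chromosome 4, UGT2B15, which conjugates androgens, was the most abundant member. It was listed at 0.0244, 0 and 0 FPKM in NC and at 3.22, 3.40 and 3.21 FPKM in LINC00862. This corresponded to a log2 fold change of 8.49 (standard error 0.67, adjusted p = 6.43e-06 by edgeR). That size rests on the 4 counts of NC library 1, without which NC was at 0 and the fitted value was 11.95, and without NC library 2 it was 7.97. UGT2B7, a broad hepatic enzyme that conjugates morphine, had 0 counts in each NC library and 122, 187 and 95 in LINC00862, at least 144-fold higher (adjusted p = 4.79e-05 by edgeR). UGT2B4 and UGT2B17, both also at 0 in each NC library, were at least 31.3-fold and at least 27.0-fold higher. Of 100-base stretches of UGT2B15 and UGT2B17, 12.74% occur in the other gene. UGT2B10, UGT2B11 and UGT2A3 had 40, 10 and 8 counts over the LINC00862 libraries, and none in NC. The glucuronosyltransferases together rose from 0.0489 ± 0.0251 to 9.18 ± 0.353 FPKM (SD, n = 3).

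Among the sulfotransferases, 4 of the 5 tested genes were higher and none was lower. SULT1C2, which is expressed mainly in fetal liver, kidney and stomach, changed the most. Its FPKM was 0.0410, 0.00467 and 0.0241 in the NC libraries and 9.40, 9.53 and 10.6 in the LINC00862 libraries. This corresponded to a log2 fold change of 8.83 (standard error 0.44, adjusted p = 4.24e-07 by edgeR). With a library left out it ranged from 8.37 (without NC library 2) to 9.44 (without NC library 1). The lowest LINC00862 library lay far above the highest NC library. SULT1C2 had 24, 3 and 14 counts in NC and entered the test only through LINC00862, so its call and adjusted p-value are a description. In LINC00862 it was the most abundant sulfotransferase, at 9.85 ± 0.680 FPKM (SD, n = 3). SULT1A1, the main hepatic phenol sulfotransferase, was listed at 0.682, 0.992 and 1.07 FPKM in NC and at 4.13, 4.11 and 4.60 FPKM in LINC00862. The groups did not overlap, with a log2 fold change of 2.38 (standard error 0.23, adjusted p = 2.36e-05 by edgeR).

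SULT1A3 and SULT1A4 are near-identical copies that encode a catecholamine sulfotransferase, and 75.74% and 94.86% of their 100-base stretches occur in another gene. SULT1A3 was listed at 0.785, 1.21 and 2.02 FPKM in NC and at 1.86, 3.76 and 3.64 FPKM in LINC00862, and SULT1A4 at 0.724, 1.64 and 0.632 FPKM and at 1.14, 3.19 and 4.89 FPKM. Both groups overlapped in both genes. The log2 fold changes were 1.35 (standard error 0.42, adjusted p = 0.0189 by edgeR) for SULT1A3 and 1.80 (standard error 0.58, adjusted p = 0.0217 by edgeR) for SULT1A4. Neither call held for every set of libraries. SULT1A3 gave 1.29 without NC library 2, 1.23 without LINC00862 library 2 and 1.15 without LINC00862 library 3, and SULT1A4 gave 1.59 without NC library 1, 1.58 without NC library 3 and 1.21 without LINC00862 library 3, each with an adjusted p of edgeR above 0.05, while SULT1A4 gave 2.39 without NC library 2. The 4 SULT1A members summed gave 2.07 (standard error 0.26, adjusted p = 0.000115 by edgeR). SULT1A2 had a log2 fold change of 0.67 (standard error 0.47, adjusted p = 0.244 by edgeR).

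The other 5 sulfotransferases were not tested. SULT2B1, a cholesterol sulfotransferase of skin, had 16, 20 and 9 counts in NC and 7, 0 and 8 in LINC00862. SULT1E1, the estrogen sulfotransferase, had counts in LINC00862 library 2 alone, where it had 16. SULT1B1 had 8 counts in NC library 1 and 7 in LINC00862 library 1, SULT1C4 had 7 counts over the LINC00862 group, and SULT6B1 had 1 count in NC library 3. The summed FPKM of all sulfotransferases was 3.55 ± 0.917 in NC and 20.6 ± 3.71 in LINC00862 (SD, n = 3).

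**Figure D2:**
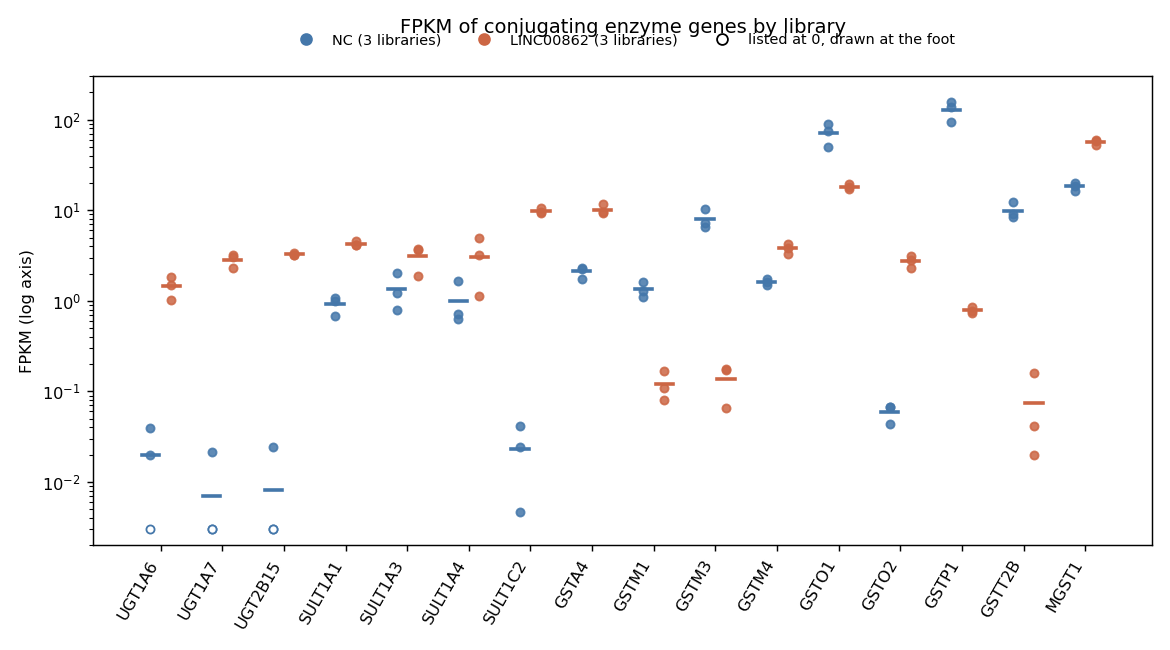
FPKM (vertical log axis) of the 16 members with a fold change of at least 2, an adjusted p under 0.05 and a mean of at least 1 FPKM in a group, with 1 point per library, a bar at each group mean, and open circles at the foot for values listed at 0. The groups overlap in SULT1A3 and SULT1A4 and are apart in the other 14, with GSTP1 falling from 95.0 to 155 FPKM in NC to under 1 FPKM in LINC00862.

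The soluble glutathione transferases moved in both directions. Of the 11 tested genes, 4 were higher and 6 were lower. GSTP1, the pi class enzyme, was the most abundant member of the whole set in NC and fell the most. Its FPKM was 95.0, 138 and 155 in the NC libraries and 0.769, 0.856 and 0.742 in the LINC00862 libraries. This corresponded to a log2 fold change of -7.18 (standard error 0.28, adjusted p = 1.32e-07 by edgeR). It made up 44.9% to 47.0% of the members' summed FPKM in NC and 0.447% to 0.536% in LINC00862.

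The omega class pair on chromosome 10 moved in opposite directions, although only 1413 bases separate GSTO1 from GSTO2. GSTO1, which reduces dehydroascorbate and methylated arsenic, was listed at 49.8, 74.6 and 90.7 FPKM in NC and at 19.3, 17.0 and 17.9 FPKM in LINC00862. It fell by 1.83 on the log2 scale (standard error 0.25, adjusted p = 0.000188 by edgeR). GSTO2, which has a high dehydroascorbate reductase activity, was listed at 0.0678, 0.0667 and 0.0441 FPKM in NC and at 3.14, 2.79 and 2.32 FPKM in LINC00862. It rose by 5.65 on the log2 scale (standard error 0.23, adjusted p = 1.58e-07 by edgeR). The groups did not overlap in either gene, and GSTO1 remained the more abundant of the pair, at 18.1 against 2.75 FPKM in LINC00862.

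The mu class cluster on chromosome 1 also split. GSTM3, found in brain and testis, was listed at 6.59, 7.27 and 10.3 FPKM in NC and at 0.171, 0.175 and 0.0652 FPKM in LINC00862, a log2 fold change of -5.68 (standard error 0.37, adjusted p = 1.99e-06 by edgeR). GSTM1, a hepatic enzyme absent from many people through a common gene deletion, was listed at 1.11, 1.296 and 1.63 FPKM in NC and at 0.110, 0.169 and 0.0808 FPKM in LINC00862, a log2 fold change of -3.27 (standard error 0.39, adjusted p = 8.97e-05 by edgeR). GSTM4 went the other way, from 1.49, 1.62 and 1.73 FPKM in NC to 4.22, 3.85 and 3.32 FPKM in LINC00862, with a log2 fold change of 1.39 (standard error 0.17, adjusted p = 9.89e-05 by edgeR). The groups did not overlap in these 3 genes. GSTM2 had a log2 fold change of 0.66 (standard error 0.35, adjusted p = 0.128 by edgeR). The listed spans of GSTM4, GSTM2 and GSTM1 overlap, and 29.11% of the 100-base stretches of GSTM1, 12.9% of those of GSTM2 and 6.506% of those of GSTM4 occur in another gene. With the 4 mu class genes summed, the class fell by 0.90 on the log2 scale (standard error 0.20, adjusted p = 0.00312 by edgeR).

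GSTT2B, of the theta class, was listed at 8.34, 12.3 and 9.09 FPKM in NC and at 0.0198, 0.0410 and 0.160 FPKM in LINC00862. This corresponded to a log2 fold change of -6.78 (standard error 0.57, adjusted p = 9.18e-06 by edgeR). With a library left out it ranged from -7.84 (without LINC00862 library 3) to -6.30 (without LINC00862 library 1). GSTT2B entered the test only through its NC counts, so its call and adjusted p-value are a description. Of its 100-base stretches, 78.54% occur in another gene, mainly its near-identical neighbor GSTT2, so reads of the pair could be split. GSTT2 is annotated as a polymorphic pseudogene and lies outside the set, and it had 101, 150 and 146 counts in NC and 5, 2 and 0 in LINC00862. GSTZ1, which degrades tyrosine metabolites, fell from 2.86 to 1.57 FPKM, with a log2 fold change of -0.70 (standard error 0.22, adjusted p = 0.0180 by edgeR), and did not pass the test without NC library 3 (-0.53) or without LINC00862 library 3 (-0.56).

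Of the alpha class, GSTA4, which conjugates 4-hydroxynonenal from lipid peroxidation, was the abundant gene. Its FPKM was 1.76, 2.25 and 2.33 in NC and 11.6, 9.25 and 9.45 in LINC00862, without overlap. This corresponded to a log2 fold change of 2.42 (standard error 0.21, adjusted p = 1.31e-05 by edgeR). GSTA2 and GSTA3, which belong to the same class, had 4 and 18 counts over the LINC00862 group and none in NC, and were not tested. GSTK1, the kappa class enzyme of mitochondria and peroxisomes, rose from 14.6 ± 1.78 to 24.2 ± 1.82 FPKM (SD, n = 3), a log2 fold change of 0.89 (standard error 0.16, adjusted p = 0.00112 by edgeR). All soluble glutathione transferases together fell from 242 ± 56.7 to 61.9 ± 5.00 FPKM (SD, n = 3), and GSTP1 and GSTO1 carried most of that sum in NC.

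The microsomal enzymes became the largest class. MGST1, which protects membranes of the endoplasmic reticulum and mitochondria from peroxidation, was listed at 16.4, 20.1 and 18.8 FPKM in NC and at 57.5, 52.4 and 60.3 FPKM in LINC00862. Every LINC00862 library lay above every NC library, with a log2 fold change of 1.80 (standard error 0.18, adjusted p = 2.57e-05 by edgeR). MGST2, which can form leukotriene C4, rose from 5.19 ± 0.830 to 8.16 ± 0.455 FPKM (SD, n = 3), a log2 fold change of 0.82 (standard error 0.19, adjusted p = 0.00481 by edgeR). MGST3 was listed at 9.02, 11.8 and 12.4 FPKM in NC and at 8.995, 8.39 and 6.23 FPKM in LINC00862. It gave a log2 fold change of -0.34 (standard error 0.19, adjusted p = 0.159 by edgeR), and without NC library 1 it was -0.50 with an adjusted p of 0.0127.

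The makeup of the set changed between the groups. Soluble glutathione transferases made up 84.8% to 87.7% of the members' summed FPKM in NC and 34.8% to 40.2% in LINC00862, and microsomal ones 11.1% to 14.004% and 43.0% to 45.3%. MGST1 alone went from 5.68% to 7.74% in NC to 32.8% to 36.3% in LINC00862. Sulfotransferases went from at most 1.399% in NC to at most 14.6% in LINC00862, and glucuronosyltransferases from at most 0.0301% to between 5.33% and 5.98%. The sum of all members was 280.1 ± 61.6 FPKM in NC and 164.5 ± 4.33 FPKM in LINC00862 (SD, n = 3), with no overlap. In an exact two-sided permutation test of the sums of the 14 classes, 12 gave p = 0.1, the smallest that 3 libraries against 3 allow, and the adjusted value was 0.117. FPKM summed over all genes was itself 296336 to 354830 in NC and 420733 to 512467 in LINC00862. Rescaling each library to the same total left the direction of each class as it was, in an alternative chosen after seeing the data, but the GSTK sums then overlapped between the groups (p = 0.3, exact permutation test).

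The donors of these reactions come from a few genes each, taken from lists fixed with earlier results known. Over all genes tested, 34.4% were higher and 29.8% lower, and the counts of each list are to be read beside these shares. A list gene that entered the test only through a single group had to differ, so these counts are a description too. Of 5 genes that make or move UDP-glucuronate, 3 rose and 1 fell. UGDH, which oxidizes UDP-glucose to UDP-glucuronate, rose from 6.28 ± 0.717 to 42.3 ± 4.59 FPKM (SD, n = 3), a log2 fold change of 2.93 (standard error 0.14, adjusted p = 3.41e-07 by edgeR). UGP2, which makes UDP-glucose, rose by 1.26 on the log2 scale, and the nucleotide sugar transporter SLC35D2 fell by 0.78. The median over the 5 genes was 0.62, against 0.11 over all genes tested.

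Of 6 genes that supply PAPS, 4 rose and 2 fell, with a median of 0.59. The 2 PAPS synthases moved in opposite directions. PAPSS1 fell from 13.0 ± 1.93 to 2.73 ± 0.351 FPKM (SD, n = 3), a log2 fold change of -2.06, and PAPSS2 rose from 8.49 ± 1.86 to 14.7 ± 3.59 FPKM (SD, n = 3), a log2 fold change of 0.97. Among sulfate transporters, SLC26A1 had a log2 fold change of 3.78 and SLC26A2 of -1.02.

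Of 16 tested genes of glutathione supply and turnover, 10 rose and 3 fell, with a median of 0.94. SLC7A11, the cystine importer, rose from 1.26 ± 0.409 to 15.4 ± 1.20 FPKM (SD, n = 3), a log2 fold change of 3.80. GGT1, which cleaves extracellular glutathione, and CHAC1, which degrades it inside the cell, had log2 fold changes of 5.64 and 3.33. Glutathione synthetase, GSS, fell by 0.53 and CHAC2 by 1.06. Of 8 exporters of conjugates, 4 rose and 1 fell, with a median of 0.38. ABCC2, the canalicular exporter of glucuronide and glutathione conjugates, rose from 0.158 ± 0.0210 to 23.7 ± 1.07 FPKM (SD, n = 3), a log2 fold change of 7.38 (standard error 0.21, adjusted p = 3.26e-08 by edgeR), and ABCC1 fell by 1.04.

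**Figure D3:**
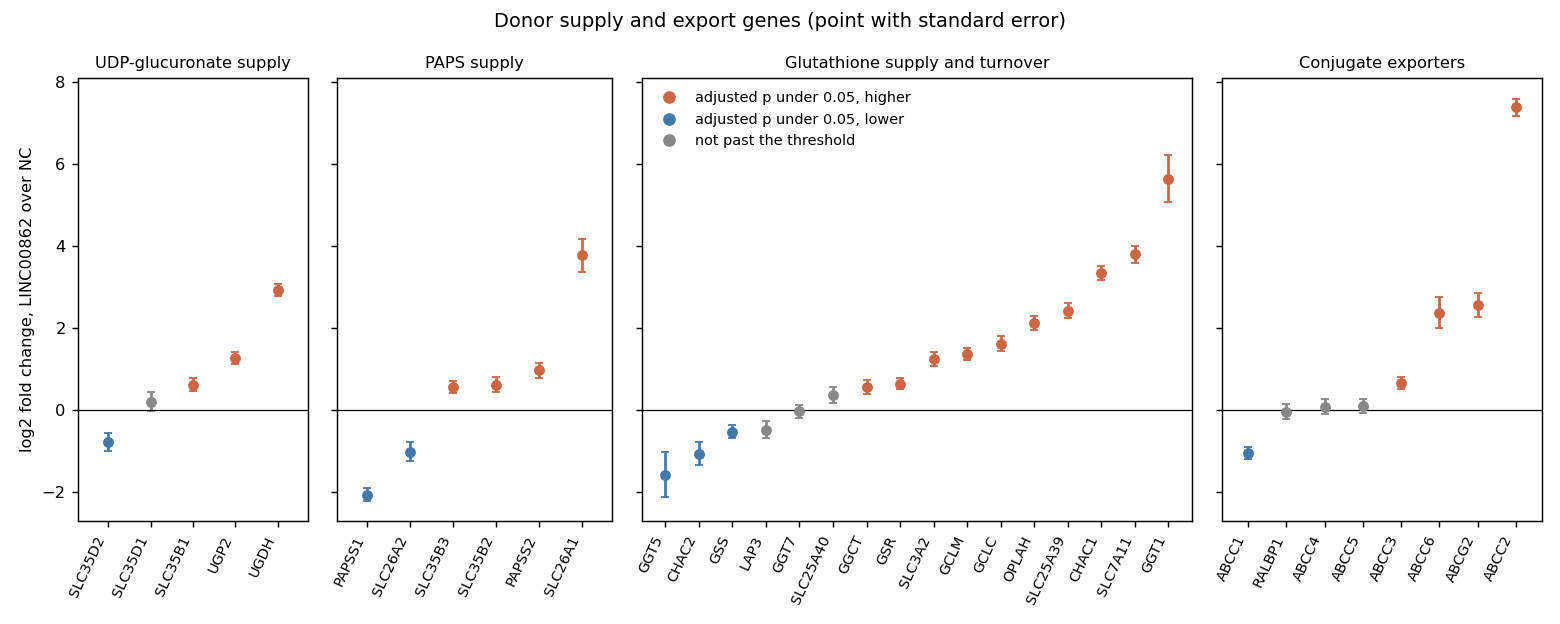
Log2 fold change (LINC00862 over NC, vertical axis) with its standard error for the tested genes of donor supply and conjugate export, in 4 panels colored by the outcome of edgeR's test. ABCC2 stands highest at 7.38 and PAPSS1 lowest at -2.06.

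Of 6 glucuronidase and sulfatase genes, not all of which act on phase II conjugates, 3 were higher and 1 was lower. Over all genes tested, 34.4% were higher and 29.8% lower. The steroid sulfatase STS rose by 1.52 on the log2 scale and the arylsulfatase ARSA by 1.11, while the heparan sulfatase SULF2 fell by 5.11. Of 13 tested methyltransferases, acetyltransferases and other conjugating enzymes outside the set, 5 rose and 5 fell, with a median of 0.04. UGT8, a galactosyltransferase of the same superfamily as the glucuronosyltransferases, went from 0.0133 ± 0.00101 to 7.81 ± 0.614 FPKM (SD, n = 3), and the histamine methyltransferase HNMT from 0.0484 to 3.59 FPKM. UGT8 had 4, 4 and 5 counts in the NC libraries, so it entered the test only through LINC00862. The nicotinamide methyltransferase NNMT fell from 49.6 ± 12.4 to 1.87 ± 0.286 FPKM (SD, n = 3), and TPMT fell by 0.82 on the log2 scale. Of 18 tested relatives by fold or by the MAPEG family, 8 rose and 5 fell. PTGES, a MAPEG enzyme that makes prostaglandin E2, rose from 0.223 ± 0.0922 to 34.4 ± 3.96 FPKM (SD, n = 3), and the chloride channel relatives CLIC1 and CLIC4 fell by 1.67 and 1.51 on the log2 scale.

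Of 26 tested genes in a list of transcription factors known to act on conjugating enzyme genes, which also holds KEAP1, 16 rose and 5 fell, with a median of 1.34. The liver and gut factors FOXA2 and HNF4G had log2 fold changes of 9.70 and 7.61, and reached 6.22 and 1.52 FPKM in LINC00862. Such sizes leave little signal in NC, and a gene that enters the test only through LINC00862 could only come out higher. MAFF, RXRA and NR3C1 fell by 1.92, 1.37 and 0.89. NFE2L2, which encodes NRF2 and is named here after its value was seen, went from 12.9 ± 1.85 to 19.3 ± 2.66 FPKM (SD, n = 3), a log2 fold change of 0.75 (standard error 0.14, adjusted p = 0.00115 by edgeR). Of 23 tested cytochrome P450 genes with symbols beginning CYP1 to CYP4, the oxidizing phase I enzymes, 15 rose and 4 fell, with a median of 2.68. Both sets of counts stand beside 34.4% higher and 29.8% lower over all genes tested, with a median of 0.11.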

How the data were processed

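RNA libraries of 3 NC and 3 LINC00862 samples were compared. For each gene the authors deposited raw counts and FPKM, which they scaled by transcript length and mapped fragments. The submitters' processing notes name cutadapt 1.9, HISAT2 2.0.4, UMI-tools, StringTie 1.3.4d, DESeq2, edgeR and hg38. Libraries were dUTP stranded, and which tool counted, with what strand setting and whether molecular identifiers were collapsed is not given in the sources used here.

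Counts were tested with edgeR 4.0.16 in R 4.3.3 (filterByExpr, TMM, quasi-likelihood test, Benjamini-Hochberg adjustment over all 20741 genes tested, false discovery rate 0.05) and checked on simulated counts. Standard errors were derived from the test statistic. FPKM served for levels and sums. A floor of 3 counts over a group set lower bounds, which cover counting error only. Members and gene lists were chosen with earlier results of these data known. Full statistics are given for members that passed the test, changed by 2-fold or more and had a mean of at least 1 FPKM in a group. List genes are named when at or above 1 FPKM, at most 3 per list and direction. The value of 1 list gene that this rule names is not reported here. Exon overlap and 100-base stretches came from GENCODE 29, promoter bases from RefSeq (GRCh38.p14). GENCODE 29 gives the coordinates listed with the counts for only 14 of the 39 members, so shares of sequence are approximate for the rest. Alternatives were DESeq2 1.42.0, upper quartile or library size scaling, no count filter, leaving out each library, a replicate block, limma 3.58.1 on log2(FPKM + 1), a test against a fold change of 2, a false discovery rate of 0.01 and summed paralog counts. No pair of libraries was a duplicate.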

Additional observations from a re-analysis of the deposited data

Results flagged for a closer look

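Among the genes with a conjugating enzyme symbol but no transcript listed as protein-coding, which no comparison of the set uses, signal appeared in LINC00862 above NC for SULT4A1 and SULT1C2P1. SULT4A1 had 0 counts in each NC library and 6, 4 and 4 counts in the LINC00862 libraries, 14 in all. SULT1C2P1, a transcript near SULT1C2 on chromosome 2, had 0 counts in each NC library and 20, 10 and 20 in the LINC00862 libraries, 50 in all. UGT1A4 had 0 counts in each NC library and 0, 24 and 8 in the LINC00862 libraries, so the groups met at 0. Its counts are not part of the UGT1A sum.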

How the results depend on the processing

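The count of members that were higher was 17, ranged from 15 to 17 with a library left out, and became 9 when paralog counts were summed, since that setting replaces single genes by families. The count of those that were lower was 6, with a range of 5 to 7. Summing turned GSTM4 and GSTM2 to -0.90. With a library left out, SULT1A3 ranged from 1.05 to 1.81 and SULT1A4 from 1.21 to 2.39, and the sums of UGT2A and SULT6, which rest on 1 library each, as differences between the groups, from 0 to 0.0177 FPKM and from -0.00415 to 0 FPKM. Against a fold change of 2, 13 members were higher and 5 lower, and GSTK1, MGST2 and GSTZ1 did not pass (adjusted p = 0.763, 0.865 and 1 by edgeR). SULT1A3 (1.35, adjusted p = 0.182) and SULT1A4 (1.80, adjusted p = 0.0962) did not pass it either, and neither did SULT1A4 with limma (0.94, adjusted p = 0.0580). GSTZ1 did not pass under upper quartile scaling (-0.50). Replicate numbers did not pair the libraries, with same-numbered correlations of deviations between -0.0489 and -0.00737, and with the replicate block 17 members were higher and 6 lower. DESeq2, library size scaling and the unfiltered fit changed the direction or the side of the threshold of none of the 26 tested members. Scaling moved the median of all genes, from 0.11 with TMM to 0.32 with upper quartile and -0.05 with library size, and 8060 genes were higher and 5291 lower under upper quartile against 6437 and 6826 under library size. Paralogs with shared reads and counts under 3 limit single values.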
